A study of Mus musculus with 8 samples.

Results

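Synaptotagmins, SNARE proteins and the other genes of synaptic vesicle release were examined in the hippocampus of wild-type and Mbd2-/- mice. The members were picked out by their gene symbols, in a set drawn up with earlier results of these data known, and comprised the Syt, Stx, Vamp, Snap, Syn, Cplx, Rab3, Rims and Unc13 genes of the deposited table, 63 of its 19201 genes. The symbol rule also took in Snap91, which encodes the clathrin adaptor AP180 and is not a SNARE. RNA was sequenced in 8 libraries, 4 per genotype, each prepared from the pooled hippocampi of 2 mice aged 10 to 12 weeks. The labels give the control genotype as C57BL/6 and the other as Mbd2-/-, a germline mutant line, and the littermates of both genotypes had heterozygous parents. Hippocampi of both sexes were used, in numbers balanced between the genotypes, and whole hippocampi hold neurons together with glial and vascular cells. The mutant Mbd2 allele keeps the first exon, which is still transcribed. Mbd2 encodes a protein that binds methylated CpG sites in DNA.

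Neurotransmitter release depends on the fusion of a vesicle with the presynaptic membrane. A vesicle SNARE (Vamp2, synaptobrevin) zips together with the plasma membrane SNAREs (Stx1a and Snap25) and pulls the membranes into contact. Munc13 proteins (Unc13) and RIM proteins make vesicles ready for fusion, complexins clamp and assist the SNARE complex, and synaptotagmins bind calcium and trigger the last step. Rab3 GTPases on the vesicle connect it to RIM proteins at the active zone, and synapsins hold the reserve pool of vesicles. Many other syntaxins and VAMPs serve the endoplasmic reticulum, the Golgi apparatus, endosomes and lysosomes, and some act at the plasma membrane of particular cell types.

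Wild-type libraries held 8439570 to 23790825 recovered reads and Mbd2-/- libraries 8087750 to 14020765. Mbd2 itself gave 295, 363, 371 and 354 normalized counts in wild-type replicates 1 to 4 and 244, 239.6, 339 and 217 in Mbd2-/- replicates 1 to 4 (log2 fold change -0.43, adjusted p = 0.0174, limma), and Mbd2-/- replicate 3 lay above wild-type replicate 1. An exact two-sided permutation test of the Mbd2 counts gave p = 0.0571. The Mbd2 values are counts over the whole gene, and the study states that Mbd2 reads of Mbd2-/- mice come from the first exon, which the allele retains, so that the count does not measure intact Mbd2 transcript in these libraries. Fold changes of all genes followed transcript length in Mbd2-/- replicates 1 to 3 (Spearman's rho of -0.48, -0.43 and -0.48 across genes) and less so in Mbd2-/- replicate 4 (-0.10). Among markers of other regions and cell types, 12 of 12 choroid plexus genes, 6 of 8 oligodendrocyte, 5 of 8 astrocyte and 5 of 8 microglia genes were called higher and 9 of 12 thalamus genes lower. The choroid plexus list summed to 23887 to 25516 normalized counts in wild-type and to 46028 to 52747 in Mbd2-/- libraries, those of the thalamus list 5106 to 5292 and 3462 to 4127, and no marker of any list was at 0. Hippocampal excitatory markers had 1 of 10 genes called higher and 3 lower, GABAergic markers 4 of 8 higher and 2 lower, and endothelial markers 2 of 8 higher and 1 lower. Of 8 pan-neuronal markers none was called, with summed counts of 51224 to 52621 in wild-type and 49918 to 55789 in Mbd2-/- libraries. Map2 alone gave 25643 to 26486 of these counts in wild-type and 24847 to 33318 in Mbd2-/- libraries. Its log2 fold change was 0.11, and no other marker of this list had a positive value. The median of the list was -0.09, with Elavl4 lowest (-0.25). The part of these lists in the results below was not tested, and in bulk tissue fewer cells of a type and less RNA per cell cannot be told apart.

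More vesicle release genes were lower than higher in Mbd2-/- hippocampi. The decreases were called in 5 calcium-sensing and 2 other synaptotagmins, Syn1 and Syn3, Rab3b and Rab3c, Rims3, Unc13a, Cplx1, Snap91 and the endomembrane SNARE Stx16, of which those of Unc13a, Syt2, Syn3 and Syt11 were lost once the trend with transcript length was removed, as were the increases of Vamp3 and Syt5. The SNAREs Stx1a, Snap25 and Vamp2, which carry out synaptic fusion, did not pass the test. Of the 59 members tested, 16 were called lower (27.1%, against 10.0% of all 14504 tested genes) and 5 were called higher (8.47%, against 12.0% of all tested genes), where a call is a Benjamini-Hochberg adjusted p under 0.05 over all tested genes. The median log2 fold change of the tested members was -0.06, and 39 of them had a negative value, while the median of all tested genes was -9.1e-05. The genotypes, of 4 libraries each, did not overlap in 19 tested members (32.2%, against 23.6% of all tested genes), among them Syt7 and Syt13, which were not called. The changes were modest, with called decreases from 0.13 (Syt11) to 0.65 (Rab3b) and called increases from 0.26 (Stx8) to 0.55 (Vamp8) on the log2 scale. Without Mbd2-/- replicate 4, in which the length trend was weak, 20 members were called lower and 9 higher (17.6% and 17.9% of all tested genes), and without Mbd2-/- replicate 3, in which the Mbd2 count was highest, 16 were called lower and 6 higher (9.51% and 10.7%). Without wild-type replicate 4, 10 were called lower and 4 higher (6.22% and 8.47%), and without Mbd2-/- replicate 1, 12 were called lower and 3 higher (6.33% and 8.14%).

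**Figure D1:**
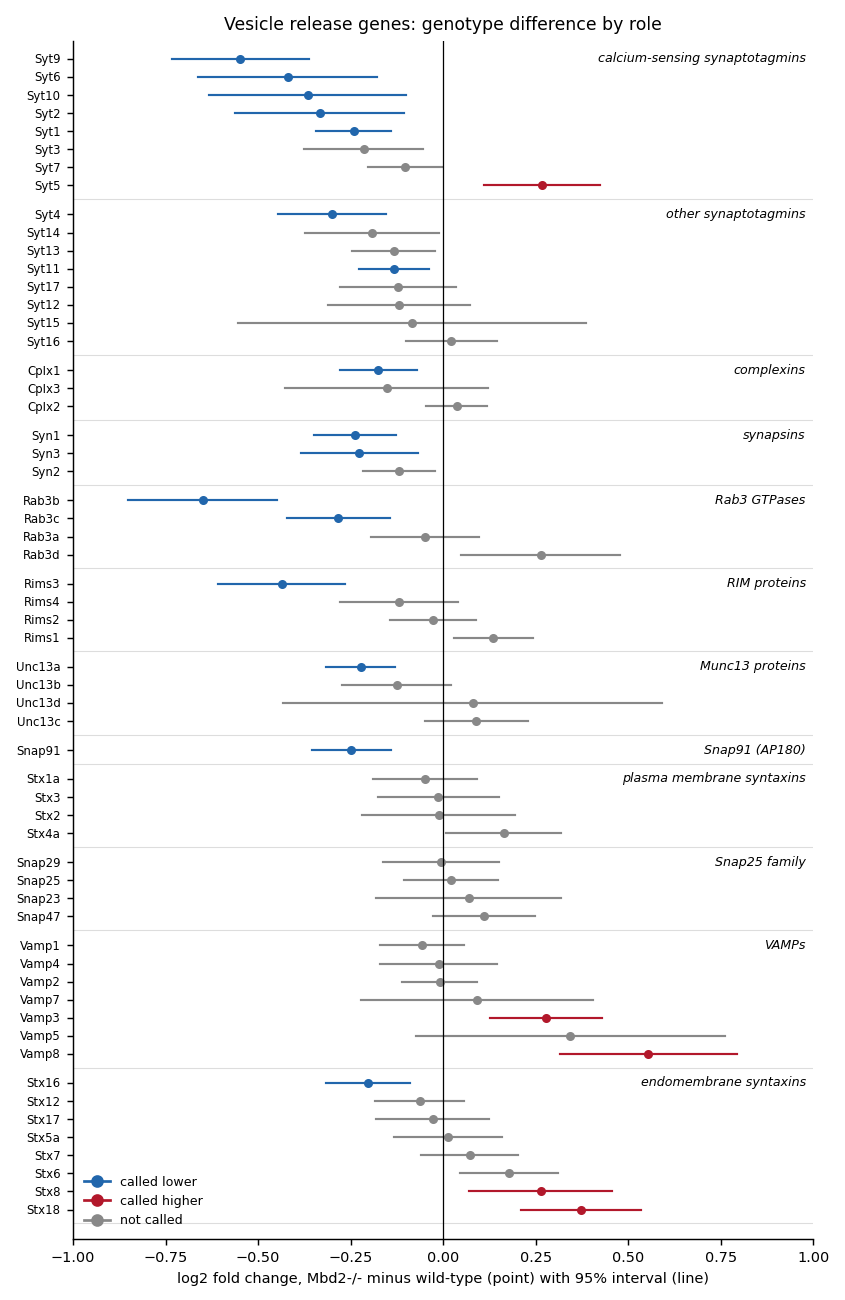
Log2 fold change of 58 of the 59 tested vesicle release genes (Mbd2-/- minus wild-type, point) with its 95% interval (line), grouped by role on the vertical axis and coloured by call. The blue points of called decreases lie in the synaptotagmins, synapsins, Rab3, RIM, Munc13 and complexin groups and at Snap91, while the syntaxins, the Snap25 family and the VAMPs hold 1 called decrease (Stx16) and 4 called increases, of which Vamp8 lies farthest from 0.

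The 4 members below the filter on low counts were all but silent in these hippocampi. Cplx4 had 0 reads over the wild-type and 3 over the Mbd2-/- libraries, Syt8 had 3 and 2, Stx11 had 18 and 12, and Stx19 had 20 and 8. Cplx4 is best known from retinal ribbon synapses, Syt8 and Stx19 from epithelia, and Stx11 from immune cells. At these depths a difference between the genotypes was not detectable in them.

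Of the 8 synaptotagmins with calcium-binding C2 domains that sense calcium, 5 fell (62.5%, against 10.0% of all tested genes), 1 rose (12.5%, against 12.0%) and Syt3 and Syt7 did not pass the test. Below, the values of a gene are its normalized counts in replicates 1 to 4 of each genotype. Syt1 (chr10:107934706-108448038, minus strand, mm9), the fast calcium sensor of most forebrain synapses and the most abundant synaptotagmin here at 2864 normalized counts per kb of transcript in wild-type libraries, gave 13876, 14044, 13126 and 14168 in wild-type and 11523, 11594, 11004 and 12616 in Mbd2-/- libraries. Every Mbd2-/- library lay below every wild-type library, and Syt1 fell by 15.4% with a log2 fold change of -0.24 (95% interval -0.34 to -0.14, adjusted p = 0.00255, limma). With the length trend removed, the value of Syt1 was -0.17 (adjusted p = 0.00642, limma). Syt9 (chr7:114514242-114692170, plus strand), a fast sensor used by limbic and striatal neurons, had 216, 208, 228 and 231 in wild-type and 157, 147, 164 and 135 in Mbd2-/- libraries. The groups were far apart for this gene, with the largest decrease of the family and a log2 fold change of -0.55 (95% interval -0.73 to -0.36, adjusted p = 0.000596, limma).

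Syt2 (chr1:136605877-136649726, plus strand), the fast sensor of many inhibitory and brainstem synapses, was at 220.3, 232, 232 and 211 in wild-type and 138, 189, 207 and 183 in Mbd2-/- libraries. Its groups were separate, Mbd2-/- replicate 1 was by far the lowest library, and the decrease was a log2 fold change of -0.33 (95% interval -0.56 to -0.10, adjusted p = 0.0366, limma). That call was lost without any 1 of wild-type replicates 1, 2, 3 and 4 or Mbd2-/- replicates 1 and 2 (adjusted p = 0.0574 to 0.112, limma). Syt6 (chr3:103379154-103449490, plus strand), known from the acrosome reaction of sperm and also present in brain, had 121, 109.8, 103 and 135 in wild-type and 88.1, 78.6, 86.1 and 96.1 in Mbd2-/- libraries. These groups did not overlap and gave a log2 fold change of -0.42 (95% interval -0.66 to -0.18, adjusted p = 0.0159, limma), which was lost without wild-type replicate 4 or Mbd2-/- replicate 2 (adjusted p = 0.0559 to 0.0709, limma). Syt10 (chr15:89612824-89672291, minus strand), which triggers the release of IGF-1 vesicles in olfactory neurons, stood at 175, 160.3, 129 and 148 in wild-type and 126, 143, 95.6 and 112 in Mbd2-/- libraries. Here the groups overlapped, since Mbd2-/- replicate 2 lay above wild-type replicate 3, and the log2 fold change of -0.37 (95% interval -0.63 to -0.10, adjusted p = 0.0471, limma) was lost without any 1 of wild-type replicates 1, 2 and 4 or Mbd2-/- replicates 1 and 3 (adjusted p = 0.0700 to 0.149, limma). DESeq2 (adjusted p = 0.0757) and edgeR (adjusted p = 0.0639) did not call it, nor did limma without a filter on low counts (adjusted p = 0.0594).

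Syt7 and Syt3 had negative values that were not called, and Syt5 went the other way. Syt7, a slow, high-affinity sensor of asynchronous release and facilitation, had 5373, 4847, 5203 and 4979 in wild-type and 4578, 4801, 4796 and 4809.6 in Mbd2-/- libraries. The groups did not overlap, yet the log2 fold change of -0.10 (95% interval -0.20 to -0.00, adjusted p = 0.130, limma) was small and missed the threshold, which it passed without Mbd2-/- replicate 4 (adjusted p = 0.0439, limma). Syt3, a sensor of vesicle replenishment and receptor endocytosis, had a log2 fold change of -0.21 (95% interval -0.38 to -0.05, adjusted p = 0.0529, limma). It passed the threshold with upper quartile scaling, the length trend removed or a replicate block, and without Mbd2-/- replicate 3 or 4. Syt5 (chr7:4491370-4498169, minus strand), a sensor on dense core and other secretory vesicles, gave 1135, 1234, 1164 and 1094 in wild-type and 1495, 1449, 1486 and 1164 in Mbd2-/- libraries. It was the only synaptotagmin called higher under this test, with a log2 fold change of 0.27 (95% interval 0.11 to 0.42, adjusted p = 0.0175, limma), although Mbd2-/- replicate 4 fell inside the wild-type range. The increase lost its call without any 1 of wild-type replicates 1 and 4 or Mbd2-/- replicates 1 and 2 (adjusted p = 0.0573 to 0.0694, limma), and with the length trend removed, where the value was 0.16 (adjusted p = 0.0920, limma).

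The other synaptotagmins lack calcium binding or bind it weakly, and 2 of the 8 tested fell (25%, against 10.0% of all tested genes). Syt4 (chr18:31597462-31607069, minus strand), an activity-induced protein of dense core vesicles that is encoded on the chromosome of Mbd2, had 2056, 2219, 2027 and 2263 in wild-type and 1637, 1747, 1588 and 2007 in Mbd2-/- libraries. The groups were separate, though Mbd2-/- replicate 4 came within reach of the lowest wild-type library, and Syt4 fell by 18.5% with a log2 fold change of -0.30 (95% interval -0.45 to -0.15, adjusted p = 0.00598, limma). Syt11 (chr3:88548622-88636219, minus strand), which restrains endocytosis and is the most abundant of these genes per kb, had 10285, 9625, 9584 and 10138 in wild-type and 8781, 9231, 9374 and 8767 in Mbd2-/- libraries. The decrease was the smallest that was called among the members, a log2 fold change of -0.13 (95% interval -0.23 to -0.04, adjusted p = 0.0446, limma). It was lost without any 1 of wild-type replicates 1, 2, 3 and 4 or Mbd2-/- replicates 1 and 2 (adjusted p = 0.0592 to 0.144, limma), and with edgeR (adjusted p = 0.0580), without a filter on low counts (adjusted p = 0.0557, limma) and with the replicate number as a block (adjusted p = 0.0720, limma). The 6 members of this group that were not called, Syt12 to Syt17, had log2 fold changes from -0.19 (Syt14) to 0.02 (Syt16).

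The synaptic fusion SNAREs Stx1a, Snap25 and Vamp2 showed no called difference. Stx1a, the syntaxin of the core complex, had 871, 807, 895 and 849.8 in wild-type and 886, 818, 873 and 734 in Mbd2-/- libraries. The groups overlapped, with a log2 fold change of -0.05 (95% interval -0.19 to 0.09). Snap25, which contributes a pair of helices to the complex, had 16586, 20234, 17534 and 17845 in wild-type and 19320.0, 17997, 16698 and 19146 in Mbd2-/- libraries. Vamp2, the vesicle partner, had 9348, 8983, 10040.3 and 9153 in wild-type and 9235, 9858, 9189 and 8991 in Mbd2-/- libraries. For Snap25 the log2 fold change was 0.02 (-0.11 to 0.15) and for Vamp2 it was -0.01 (-0.11 to 0.09), so that differences beyond about these bounds were outside the 95% intervals. With the length trend removed, Stx1a, Snap25 and Vamp2 were also not called, but their values moved. They were then -0.12 for Stx1a (adjusted p = 0.197, limma), 0.09 for Snap25 (adjusted p = 0.261, limma) and -0.07 for Vamp2 (adjusted p = 0.302, limma). None of Snap23, Snap29 and Snap47 was called either (-0.01 to 0.11), nor Stx2, Stx3 and Stx4a (-0.01 to 0.16), which act at the plasma membrane of other cell types and compartments.

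**Figure D2:**
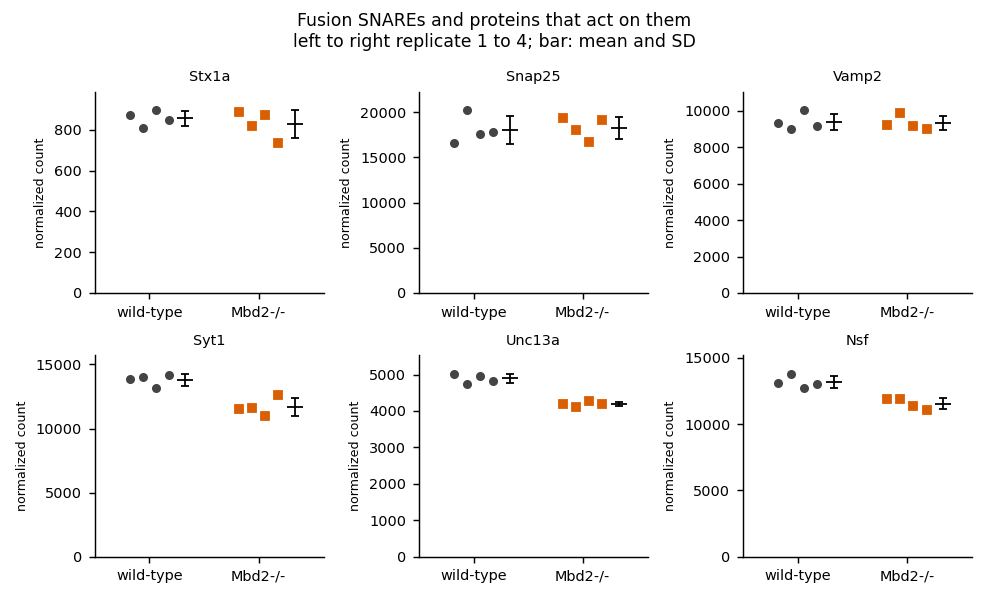
Normalized counts (vertical axes from 0) of the fusion SNAREs Stx1a, Snap25 and Vamp2 and of Syt1, Unc13a and Nsf in each library, with the mean and SD of 4 libraries beside the points. The points of the upper row overlap between genotypes, while in the lower row each Mbd2-/- library lies below each wild-type library.

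Calls among the 24 tested SNAREs fell on members of the endomembrane system, 4 of them higher (16.7%, against 12.0% of all tested genes) and 1 lower (4.17%, against 10.0%). Vamp8 (chr6:72335217-72340697, minus strand), the endobrevin of late endosomes, lysosomes and secretory granules, had 111, 102, 111 and 94.5 in wild-type and 142, 178, 169 and 131 in Mbd2-/- libraries. All Mbd2-/- libraries were above all wild-type libraries, and the means were 105 ± 8.04 for wild-type and 155 ± 22.4 for Mbd2-/- (SD, n = 4 each). Vamp8 rose by 48.2% with a log2 fold change of 0.55 (95% interval 0.32 to 0.79, adjusted p = 0.00295, limma). Vamp3 (chr4:150421409-150432072, minus strand), the cellubrevin of recycling endosomes and the close non-neuronal relative of Vamp2, gave 382, 363, 336 and 364 in wild-type and 402, 431, 449 and 474 in Mbd2-/- libraries. Its groups were also separate, with a log2 fold change of 0.28 (95% interval 0.13 to 0.43, adjusted p = 0.0116, limma) that lost its call with the length trend removed (0.21, adjusted p = 0.0625, limma). Vamp5, the neighbour of Vamp8 at a distance of 4.755 kb, had a positive value that was not called (0.34, adjusted p = 0.225, limma), and Vamp1, Vamp4 and Vamp7 lay between -0.06 and 0.09.

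Stx18 (chr5:38429981-38529004, plus strand), the syntaxin of the endoplasmic reticulum that receives vesicles from the Golgi apparatus, had 208, 221, 237 and 215 in wild-type and 279.6, 268, 295 and 299 in Mbd2-/- libraries. The genotypes were well separated, and Stx18 rose by 29.5% with a log2 fold change of 0.37 (95% interval 0.21 to 0.53, adjusted p = 0.00305, limma). Its exons overlap those of Nsg1 on the opposite strand by 573 bases, and Nsg1 had a log2 fold change of 0.01. Whether the counting used strand is not given in the sources used here. Among called members, smaller opposite-strand overlaps of exons were also found in Syt6 (503 bases with Atg4a-ps), Stx8 (351 bases with RP23-25D18.6), Syt4 (282 bases with Gm16871) and Syn1 (9 bases with Araf). Stx8 (chr11:67779695-68020650, plus strand), a late endosomal SNARE, had 265, 227, 225 and 236 in wild-type and 331, 293, 277 and 249 in Mbd2-/- libraries. The groups overlapped by Mbd2-/- replicate 4, and the log2 fold change of 0.26 (95% interval 0.07 to 0.46, adjusted p = 0.0485, limma) was lost without any 1 of wild-type replicates 2, 3 and 4 or Mbd2-/- replicates 1 and 2 (adjusted p = 0.107 to 0.162, limma). It was also lost with upper quartile scaling (adjusted p = 0.0576, limma) and without a filter on low counts (adjusted p = 0.0628, limma). Stx16 (chr2:173901809-173925272, plus strand), a SNARE of the trans-Golgi network, went the other way with 946, 925, 892 and 915 in wild-type and 792, 786, 794 and 824 in Mbd2-/- libraries. Its libraries were tightly grouped within each genotype, and it fell by 13.1% with a log2 fold change of -0.20 (95% interval -0.32 to -0.09, adjusted p = 0.0131, limma). The 5 endomembrane syntaxins that were not called, Stx5a, Stx6, Stx7, Stx12 and Stx17, lay between -0.06 and 0.18. The highest of them, Stx6, was called higher by DESeq2, with a minimum mean count of 50, with a replicate block and without Mbd2-/- replicate 4.

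Promoter sequences were examined because Mbd2 binds methylated CpG sites, and the RefSeq promoter table (GRCm38.p6, a later build than that of the files) held 47 of the 63 members. Windows of 300 bases, from 250 before to 50 after the start, held a median of 20 CpG sites in the members and 7 in all 27025 promoters, the first listed of each gene. The median number of CpG sites was 20 in the 14 called lower that matched, 19 in the 3 called higher and 20 in the 27 not called. The 27025 promoters were not limited to the genes tested here. Their median GC content was 52.7%, against 62.3% in the members. Whether the motif shares below differ beyond what GC content gives was not tested. The GC box (GGGCGG, both strands) was present in 35 members (74.5%, against 35.9% of all promoters), the cyclic AMP response element (TGACGTCA) in 1 member, Syn1 (2.13%, against 1.88%), the E-box of the letters CACGTG in 6 members (12.8%, against 7.24%) and the TATA box (TATAAA) in 2 members, Rab3b and Stx3 (4.26%, against 14.2%). The 250 bases before the start are shown, with CpG sites in capitals, for the matched members with the 2 largest decreases and the 2 largest increases, Rab3b (chr4:108878820-108879069, plus strand), Syt9 (chr7:107370540-107370789, plus strand), Stx18 (chr5:38038980-38039229, plus strand) and Vamp8 (chr6:72390668-72390917, minus strand), a choice made after their values were seen.
Rab3b: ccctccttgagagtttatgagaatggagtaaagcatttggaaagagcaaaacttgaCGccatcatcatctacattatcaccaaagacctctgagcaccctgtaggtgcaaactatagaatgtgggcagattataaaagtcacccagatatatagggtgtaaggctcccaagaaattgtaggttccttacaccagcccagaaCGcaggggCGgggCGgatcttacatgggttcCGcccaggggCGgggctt
Syt9: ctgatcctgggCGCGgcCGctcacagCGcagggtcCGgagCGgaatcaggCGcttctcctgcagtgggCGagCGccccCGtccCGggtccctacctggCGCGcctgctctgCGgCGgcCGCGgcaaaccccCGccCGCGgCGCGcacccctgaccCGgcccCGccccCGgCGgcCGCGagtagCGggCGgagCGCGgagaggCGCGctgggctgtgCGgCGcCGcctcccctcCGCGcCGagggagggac
Stx18: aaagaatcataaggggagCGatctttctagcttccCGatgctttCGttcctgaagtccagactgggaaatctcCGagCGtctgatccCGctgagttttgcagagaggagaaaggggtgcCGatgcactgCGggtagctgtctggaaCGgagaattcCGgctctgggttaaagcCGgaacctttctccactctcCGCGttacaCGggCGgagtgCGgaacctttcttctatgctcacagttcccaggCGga
Vamp8: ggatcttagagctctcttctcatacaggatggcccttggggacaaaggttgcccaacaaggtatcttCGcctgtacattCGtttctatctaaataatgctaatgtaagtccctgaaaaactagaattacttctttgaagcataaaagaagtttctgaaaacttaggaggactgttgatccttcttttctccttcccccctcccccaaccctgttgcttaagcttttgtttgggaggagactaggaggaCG
These stretches held 6, 40, 17 and 3 CpG sites in this order, so that a sparse and a dense promoter stood in either direction of change. DNA methylation was not measured in these libraries.

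Proteins that prepare or clamp vesicles were divided between called and uncalled paralogs. Unc13a (chr8:74150614-74195656, minus strand), the main Munc13 priming factor of excitatory synapses, had 5021, 4747, 4971 and 4827 in wild-type and 4181, 4122, 4264 and 4196 in Mbd2-/- libraries. The libraries of each genotype were close together and did not overlap, and Unc13a fell by 14.3% with a log2 fold change of -0.22 (95% interval -0.32 to -0.13, adjusted p = 0.00243, limma). With the trend with transcript length removed, the call was lost and the value was -0.09 (adjusted p = 0.219, limma). Unc13b (-0.13), Unc13c (0.09) and Unc13d (0.08) were not called. Cplx1 (chr5:108947573-108979043, minus strand), a complexin that binds the assembled SNARE complex, had 6225, 6047, 6058 and 6062 in wild-type and 5444, 5566, 5665 and 4959 in Mbd2-/- libraries. Its groups did not overlap and gave a log2 fold change of -0.17 (95% interval -0.28 to -0.07, adjusted p = 0.0182, limma), a call that was lost without either of wild-type replicates 1 and 4 (adjusted p = 0.0510 to 0.0650, limma). Cplx2, the complexin of principal neurons and the most abundant member per kb (4707 normalized counts in wild-type libraries), stood at 22616, 23905, 23503 and 22709 in wild-type and 23207, 24178, 24213 and 23477 in Mbd2-/- libraries. The groups of Cplx2 overlapped, with a log2 fold change of 0.04 (95% interval -0.05 to 0.12, adjusted p = 0.547, limma), and Cplx3 was not called (-0.15).

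Rims3 (chr4:120527421-120569184, plus strand), a short RIM protein with a single C2 domain, had 282, 282, 335 and 274 in wild-type and 216, 218, 225 and 206 in Mbd2-/- libraries. The Mbd2-/- libraries were tightly grouped below all wild-type libraries, of which replicate 3 was high, and Rims3 fell by 26.4% with a log2 fold change of -0.44 (95% interval -0.61 to -0.26, adjusted p = 0.00164, limma). Rims1, the long RIM of the active zone, gave 2720.4, 2679, 2913 and 2585 in wild-type and 2889.7, 2986, 3003 and 3081 in Mbd2-/- libraries. All but wild-type replicate 3 lay below the Mbd2-/- libraries, and the log2 fold change of 0.14 (95% interval 0.03 to 0.24, adjusted p = 0.0644, limma) missed the threshold, which it passed without wild-type replicate 3 (adjusted p = 0.0474, limma) or Mbd2-/- replicate 4 (adjusted p = 0.0396, limma), and with the length trend removed, where the value was 0.24 (adjusted p = 0.00211, limma). Rims2 (-0.03) and Rims4 (-0.12) were not called.

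Among the Rab3 GTPases, Rab3b showed the largest decrease of all members. Rab3b (chr4:108551668-108615929, plus strand), a vesicle GTPase used in long-term depression at inhibitory hippocampal synapses, had 417, 369, 414 and 345 in wild-type and 273, 259.7, 250.2 and 203 in Mbd2-/- libraries. Its means were 386 ± 35.0 for wild-type and 246 ± 30.6 for Mbd2-/- (SD, n = 4 each), the groups were separate, and it fell by 36.2% with a log2 fold change of -0.65 (95% interval -0.85 to -0.45, adjusted p = 0.000305, limma). The noncoding transcript 8030443G20Rik overlaps it on the opposite strand by 317 bases. Rab3c (chr13:110844395-111071109, minus strand), a vesicle GTPase close to Rab3a, had 4474, 4837, 4364 and 4721 in wild-type and 3593, 3808, 3406 and 4358 in Mbd2-/- libraries. The highest Mbd2-/- library, replicate 4, almost reached the lowest wild-type library, and the difference was a log2 fold change of -0.28 (95% interval -0.42 to -0.14, adjusted p = 0.00650, limma), which became -0.15 (adjusted p = 0.0404, limma) with the length trend removed. Rab3a, the most abundant Rab3 per kb and a regulator of vesicle supply, had 3957, 3881, 3952 and 3961 in wild-type and 4309.7, 3906, 3897 and 3197 in Mbd2-/- libraries. Wild-type libraries hardly varied while Mbd2-/- replicates 1 and 4 lay above and below them, with a log2 fold change of -0.05 (95% interval -0.20 to 0.10, adjusted p = 0.652, limma). With the length trend removed, Rab3a was called lower at -0.18 (adjusted p = 0.0261, limma). Exons of Rab3a overlap those of Mpv17l2 on the opposite strand by 29 bases, and Mpv17l2 was called higher (0.40, adjusted p = 0.00778, limma). Rab3d, known from secretory granules, was positive but not called (0.26, adjusted p = 0.0725, limma). It was called higher with the length trend removed and without wild-type replicate 4 or Mbd2-/- replicates 3 or 4.

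Synapsins and AP180 serve the vesicle cluster and its recycling. Syn1 (chrX:20437637-20498130, minus strand), the synapsin that tethers vesicles to one another and to actin, had 5315, 5465, 5955 and 5384 in wild-type and 4980.0, 4727, 4377 and 4673 in Mbd2-/- libraries. No Mbd2-/- library reached the wild-type range, and Syn1 fell by 15.2% with a log2 fold change of -0.24 (95% interval -0.35 to -0.13, adjusted p = 0.00485, limma). Syn2, the more abundant synapsin per kb, had 9179, 8981, 8523 and 9039.8 in wild-type and 8359, 8537, 8264 and 7747 in Mbd2-/- libraries. The groups overlapped only by Mbd2-/- replicate 2 and wild-type replicate 3, and the log2 fold change of -0.12 (95% interval -0.22 to -0.02, adjusted p = 0.0737, limma) missed the threshold. Syn3 (chr10:85517870-85961641, minus strand), the synapsin of immature neurons, had 634, 602, 586 and 628 in wild-type and 518, 539.6, 454 and 589 in Mbd2-/- libraries. Mbd2-/- replicate 4 overlapped the wild-type libraries, and the log2 fold change of -0.23 (95% interval -0.38 to -0.07, adjusted p = 0.0390, limma) was lost without any 1 of wild-type replicates 1, 2, 3 and 4 or Mbd2-/- replicates 1, 2 and 3 (adjusted p = 0.0639 to 0.109, limma) and without a filter on low counts (adjusted p = 0.0505, limma). Timp3 lies within Syn3 on the opposite strand, shares 1733 exon bases with it and had a log2 fold change of 0.12. Snap91 (chr9:86659981-86775489, minus strand), which gathers Vamp2 and clathrin for vesicle retrieval, had 4378, 4516, 4514 and 4563 in wild-type and 3864, 3817, 3475 and 3989.9 in Mbd2-/- libraries. The groups were separate, and Snap91 fell by 15.7% with a log2 fold change of -0.25 (95% interval -0.35 to -0.14, adjusted p = 0.00283, limma).

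**Figure D3:**
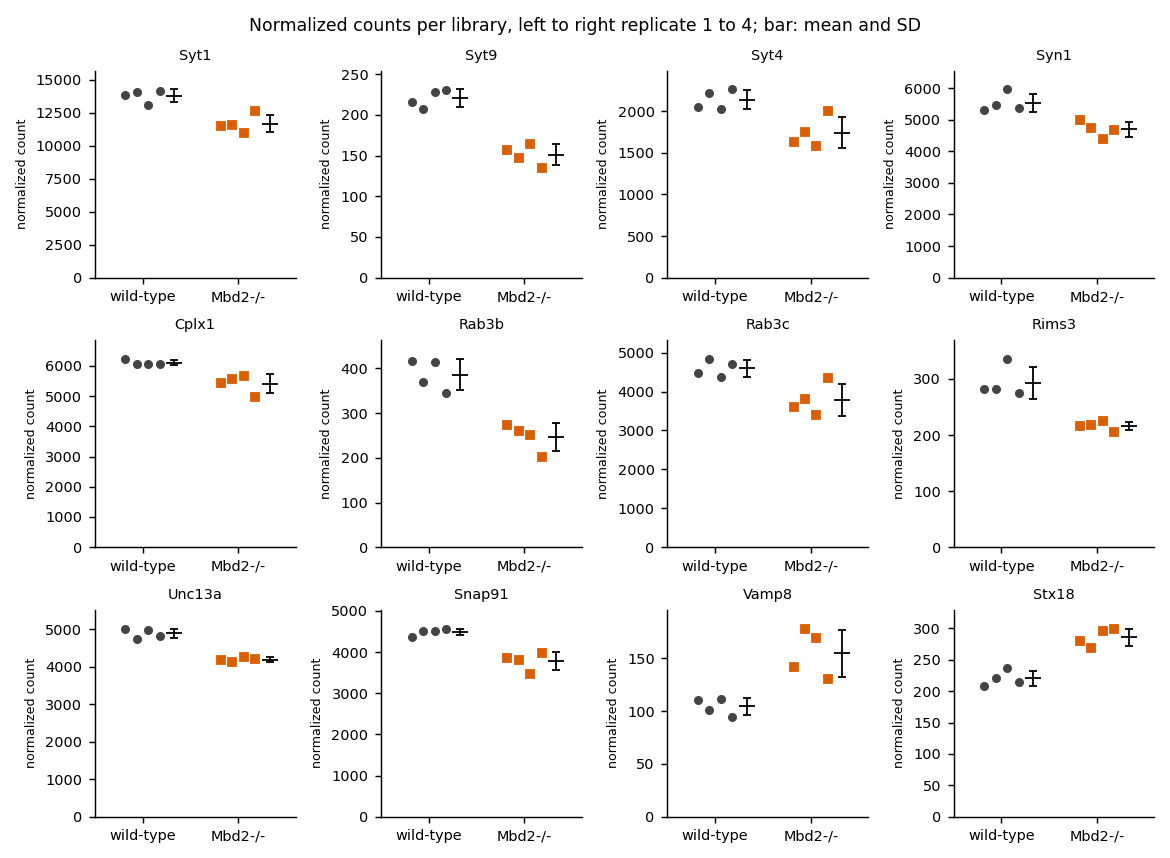
Normalized counts (vertical axes from 0) of 12 called vesicle release genes in each library, in replicate order from left to right, with the mean and SD of the 4 libraries beside the points. In the 10 genes called lower each square (Mbd2-/-) lies below each circle (wild-type), and in Vamp8 and Stx18 each square lies above. The 12 are a selection from the 21 called genes, and the called genes whose groups overlap (Syt10, Syn3, Syt5 and Stx8) are not shown.

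Grouped by family after the values had been seen, the 24 tested SNAREs had 4 genes called higher (16.7%) and 1 lower (4.17%), with a median of 0.02 on the log2 scale. The 35 other tested members had 1 called higher (2.86%) and 15 lower (42.9%), with a median of -0.13. Of all tested genes, 12.0% were called higher and 10.0% lower. This grouping was not tested, and the SNAREs' share of called increases was near that of all genes. By role, the medians were -0.29 for the calcium-sensing synaptotagmins, -0.23 for the synapsins, 0.045 for the Snap25 family and 0.091 for the VAMPs. Leaving out 1 library moved the median of the VAMPs most, to 0.0076 without Mbd2-/- replicate 4 and to 0.24 without Mbd2-/- replicate 3. The Snap25 family ran from 0.0082 (without wild-type replicate 1) to 0.080 (without wild-type replicate 2), while the calcium-sensing synaptotagmins stayed between -0.31 and -0.22 and the synapsins between -0.24 and -0.16. Measured against the wild-type mean, the 16 members called lower had a median between -0.37 (Mbd2-/- replicate 3) and -0.23 (Mbd2-/- replicate 4) in the Mbd2-/- libraries and between -0.03 and 0.02 in the wild-type libraries. All 16 were below the wild-type mean in each Mbd2-/- library, and all 5 members called higher were above it, directions that the calls favour by construction. The highest Mbd2-/- value of a gene called lower came from replicate 4 in 7 genes, replicate 3 in 6, replicate 1 in 2 and replicate 2 in 1.

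Paralogs were then compared within each library, since a ratio of genes in the same library does not depend on its scaling. Of 9 pairs, the ratio differed without overlap between genotypes in 2, Cplx2/Cplx1 and Unc13a/Unc13c. The log2 ratio of Cplx2 to Cplx1 was 1.86, 1.98, 1.96 and 1.91 in wild-type and 2.09, 2.12, 2.10 and 2.24 in Mbd2-/- libraries. It was higher in each Mbd2-/- library, by a mean of 0.21 (exact two-sided permutation p = 0.0286, the smallest that 4 against 4 libraries allow, adjusted p = 0.129 over the 9 pairs). For Unc13a to Unc13c the log2 ratio was 3.31, 3.23, 3.33 and 3.35 in wild-type and 2.92, 2.98, 3.14 and 2.92 in Mbd2-/- libraries. It was lower in each Mbd2-/- library, by a mean difference of -0.31 (exact two-sided permutation p = 0.0286, adjusted p = 0.129). No pair passed the threshold after adjustment, and 2 did before it. With so few libraries a pair that is fully separate cannot pass the adjusted threshold unless most of the other pairs separate as well, so that the adjusted values say nothing of a difference being absent. Rims1 to Rims2 differed by 0.16 (exact permutation p = 0.0857) and Rab3a to Rab3c by 0.23 (exact permutation p = 0.20), both with overlap. The pairs Syt1/Syt2, Snap25/Snap23, Vamp2/Vamp1 and Syn1/Syn2, differed by -0.12 to 0.09 (exact permutation p = 0.20 to 0.60).

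**Figure D4:**
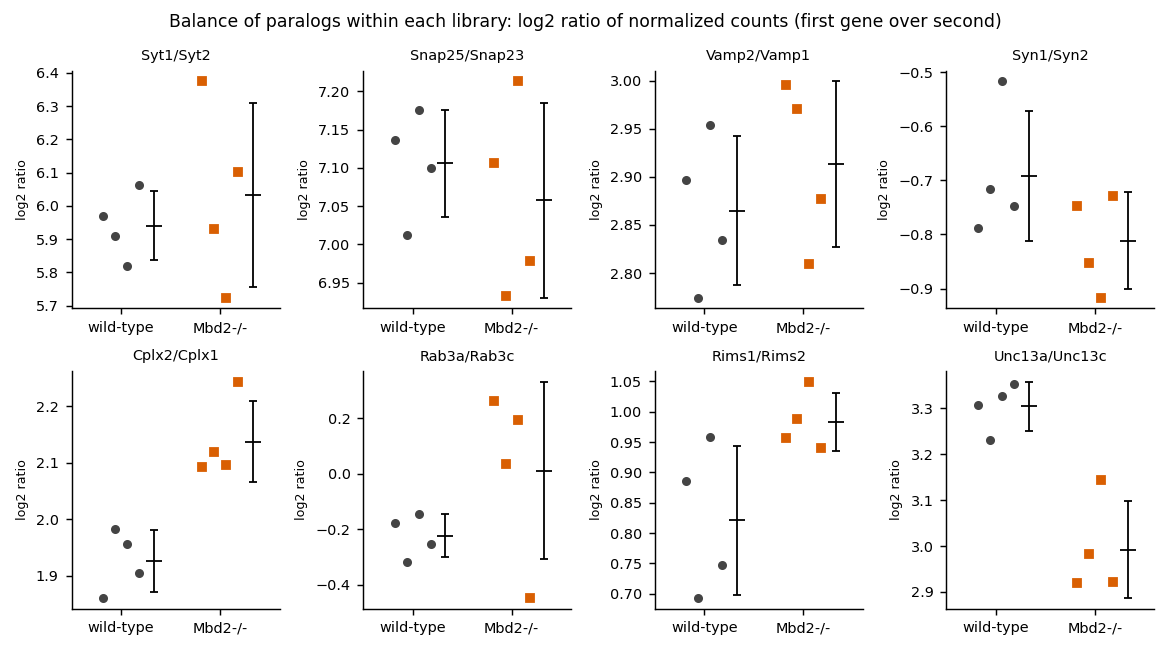
Log2 ratio of the normalized counts of 2 paralogs within each library for 8 pairs (vertical axes do not start at 0 and differ between panels), with the mean and SD of 4 libraries. Among them the genotypes are fully separate only for Cplx2/Cplx1 and Unc13a/Unc13c.

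Genes of release and recycling outside the symbol rule were read from 6 lists, of which 74 genes were tested. Of these, 20 were called lower (27.0%, against 10.0% of all tested genes) and 8 higher (10.8%, against 12.0%), with a median log2 fold change of -0.10. Among docking and fusion factors, 5 of 16 were called lower and 1 higher. Stxbp5 (tomosyn), a competitor of Vamp2, fell (-0.27, adjusted p = 0.0130, limma), and Napa, the adaptor that brings Nsf to used SNARE complexes, rose (0.18, adjusted p = 0.0268, limma). Nsf, the ATPase that takes the complexes apart, had 13112, 13804, 12710.4 and 13060.5 in wild-type and 11924, 11864, 11350.1 and 11039.6 in Mbd2-/- libraries, which do not overlap (log2 fold change -0.19, adjusted p = 0.00660, limma; chosen after its values were seen).

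Vesicle membrane proteins had 5 of 16 genes called lower and 1 higher. Of all tested genes, 10.0% were called lower and 12.0% higher, and these shares stand beside each list in this paragraph. In lists of this size, 1 gene of 10 called is near them. The largest decreases were in Slc17a6, a vesicular glutamate transporter that is also in the thalamus marker list (-0.66, adjusted p = 1.51e-05, limma), and in Sv2c (-0.36, adjusted p = 0.00555, limma), whose paralogs Sv2a (-0.32) and Sv2b (-0.31) also fell. SV2 proteins bind Syt1 and regulate its retrieval. Synpr (synaptoporin), a protein of mossy fibre vesicles, rose (0.29, adjusted p = 0.00740, limma). In vesicle endocytosis, 6 of 16 were called lower and 3 higher, with the largest decreases in the membrane-cutting GTPases Dnm3 (-0.34, adjusted p = 0.00117, limma) and Dnm1 (-0.22, adjusted p = 0.00548, limma) and the largest increases in the endophilin Sh3gl3 (0.32, adjusted p = 0.00902, limma) and the clathrin light chain Clta (0.28, adjusted p = 0.00555, limma). Active zone scaffolds had 2 of 10 called lower, Rimbp2 (-0.21), which links RIM proteins to calcium channels, and Ppfia2 (-0.19). Of 10 further SNAREs only Use1, a partner of Stx18 at the endoplasmic reticulum, was called, and it rose (0.38, adjusted p = 0.00177, limma). Of 6 tested synaptotagmin-like and extended synaptotagmin genes, Sytl5 (0.32) and Sytl2 (0.31) rose and Esyt3 (-0.89, from 28.8 to 15.6 mean normalized counts) and Esyt2 (-0.20) fell.

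Transcript length varied with the fold changes of the members too. Across the 58 tested members whose length was annotated, the log2 fold change and the length of the longest transcript had a Spearman's rho of -0.32, against -0.46 across 14182 tested genes, a description across genes that share the same libraries. Members called lower had a median length of 4158.5 bases, those called higher 2120 bases and all 58 a median of 3530 bases. With this trend taken out of every library before the test, 16 members were called lower and 6 higher (against 6.1% and 8.84% of all tested genes), and 12 of the lower and 3 of the higher ones were shared with the calls above. The calls of 6 members were lost, with values of -0.09 (adjusted p = 0.219, limma) for Unc13a, 0.21 (adjusted p = 0.0625, limma) for Vamp3, 0.16 (adjusted p = 0.0920, limma) for Syt5, -0.22 (adjusted p = 0.169, limma) for Syt2, -0.16 (adjusted p = 0.111, limma) for Syn3 and -0.06 (adjusted p = 0.446, limma) for Syt11. Rims1 at 0.24 (adjusted p = 0.00211, limma), Rab3d at 0.30 (adjusted p = 0.0461, limma) and Unc13c at 0.20 (adjusted p = 0.0330, limma) were then called higher, and Rab3a at -0.18 (adjusted p = 0.0261, limma), Syt3 at -0.24 (adjusted p = 0.0261, limma), Syt14 at -0.29 (adjusted p = 0.0391, limma) and Syt17 at -0.25 (adjusted p = 0.0136, limma) lower. The decreases of Syt9 (-0.51), Rab3b (-0.63) and Rims3 (-0.33) and the increases of Stx18 (0.37) and Vamp8 (0.48) were called in both. How far length contributed to each difference was not tested.

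**Figure D5:**
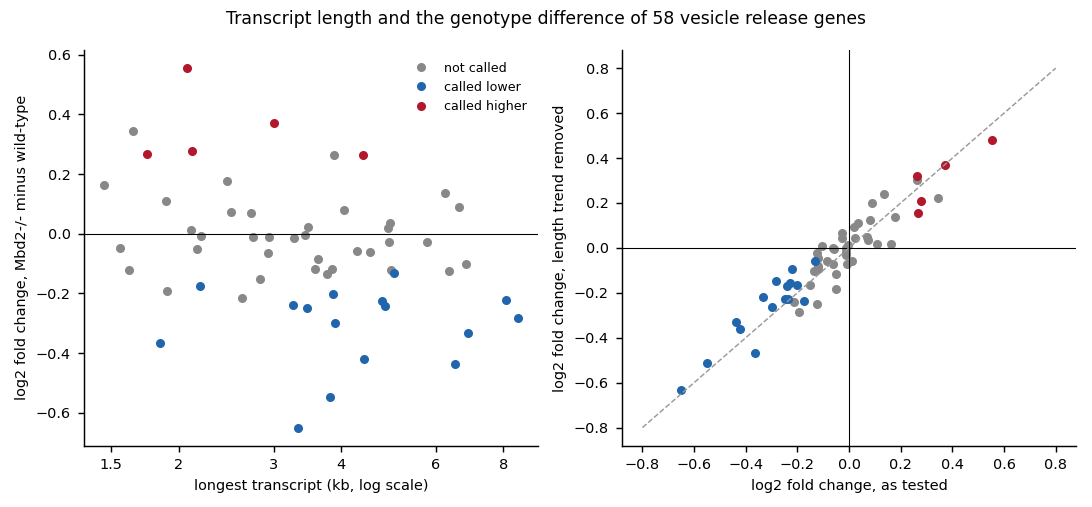
Left, log2 fold change (Mbd2-/- minus wild-type) of 58 vesicle release genes against the length of the longest transcript (kb, log scale), coloured by call, with called decreases at a median of 4158.5 bases and called increases at 2120 bases. Right, log2 fold change with the length trend removed against that as tested, where points on the dashed line did not move.

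Of the 21 called members, 11 kept their call in each of 9 alternatives with all libraries and with each library left out in turn. These were Rab3b, Rab3c, Rims3, Snap91, Stx16, Syn1, Syt1, Syt4 and Syt9 among the decreases and Stx18 and Vamp8 among the increases. No called member changed direction in any of these 17 settings. Among members without a call, Syt13 was also called without Mbd2-/- replicate 3, and Snap47, Syt14 and Unc13b without Mbd2-/- replicate 4. Synaptotagmins, syntaxins and the other families hold paralogs of similar sequence, and reads that the authors' counting divided between them would make the values of single members uncertain.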

How the data were processed

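RNA of 8 hippocampal libraries (4 wild-type, 4 Mbd2-/-) was depleted of ribosomal RNA and read as paired ends of 100 bases. Per the labels and the study's methods, duplicate reads were removed, STAR was used for alignment to mm9 and DESeq2 for the comparison of genotypes (versions and the tool that counted reads on genes are not given in the sources used here). The signal deposited by the authors is the normalized count, that is, reads per gene after division by the size factor of the library. The fold changes, statistics and p-values of the authors' own comparison are in the same table and were not used. Columns C1 to C4 were matched to the control samples and K1 to K4 to the Mbd2-/- samples by name.

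The smallest value of a library equals 1 read, and all values (100%) came out whole within 0.01 of a read when divided by it, which recovered the read counts. Depth therefore limits only genes with few reads, and read totals cover counting error only. Log2(normalized count + 1) was compared with limma 3.58.1 in R 4.3.3 (mean-variance trend, robust) for the 14504 genes whose mean normalized count reached 10, with Benjamini-Hochberg adjustment over all of them at 0.05. Log2 fold changes are on this scale, which understates changes of low genes. On the recovered reads, edgeR 4.0.16 (quasi-likelihood) called 1770 genes higher and 1402 lower, and DESeq2 1.42.0 called 1590 and 1315. Paralog ratios and the Mbd2 counts were compared by an exact two-sided permutation test. Other alternatives were TMM and upper quartile scaling, no filter on low counts, a minimum of 50, a pseudocount of 5, removal of the trend with transcript length, a replicate block and leaving out each library. Gene positions and lengths are from GENCODE vM1 on mm9, matched by symbol for 16812 genes and by synonym for 1285. Counts per kb are normalized counts divided by the length of the longest transcript.

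Replicates are pools of 2 mice, and replicate numbers were not treated as pairs, since deviations from the genotype mean correlated by -0.10, -0.06, 0.07 and 0.04 between same-numbered libraries. No pair of libraries within a genotype repeated another.

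The members, roles, pathway lists and marker lists were chosen with earlier results of these data known. Library values are given for each called member and for Syt1, Syt7, Stx1a, Snap25, Vamp2, Syn1, Syn2, Cplx1, Cplx2, Rab3a, Rims1 and Unc13a whatever their result, and for the other lists the 2 largest called increases and decreases are named. Other genes were named after their values were seen. A member with its paralog pair and a gene of the other lists enter the counts and adjustments but are not reported here.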

Additional observations from a re-analysis of the deposited data

Results flagged for a closer look

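In 60 groups of 4 libraries, 5 held a library whose gap to its nearest neighbour exceeded the 95% critical value of Dixon's test, which chance exceeds in about 1 of 20 groups. Cplx1 was high in wild-type replicate 1, at 6225 normalized counts against 6047 to 6062 in the other wild-type libraries. Rims3 was high in wild-type replicate 3, at 335 against 274 to 282, and Rab3a was low in wild-type replicate 2, at 3881 against 3952 to 3961. Syt5 was low in Mbd2-/- replicate 4, at 1164 against 1449 to 1495, and without that library the log2 fold change of Syt5 was 0.35 (adjusted p = 7.63e-06, limma). Syt7 was low in Mbd2-/- replicate 1, at 4578 against 4796 to 4810.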

How the results depend on the processing

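With the length trend removed, 2118 of the 14182 genes with an annotated length were called, against 3185 of 14504 reported. The counts of members and of other release machinery stayed within 1.5 times of those reported under the 9 alternatives that used all libraries. Leaving out each library in turn gave 2068 to 5155 called genes in all, 10 to 20 members called lower, 3 to 9 called higher and 21 to 43 called genes of the other release machinery, with the highest of each (5155, 20, 9 and 43) when Mbd2-/- replicate 4 was left out. Omitting wild-type replicate 3 gave the lowest total (2068), omitting wild-type replicate 4 the fewest lower members (10), and omitting Mbd2-/- replicate 1 the fewest higher members (3, also with replicate 2) and the fewest in the other machinery (21). Sign changes occurred only among members that were not called. With the length trend removed, Syt7 changed sign (0.0088). Over the libraries left out, Snap25 ran from -0.019 to 0.077, Vamp2 from -0.037 to 0.024, Rab3a from -0.11 to 0.035 and Stx1a from -0.084 to 0.0066, with Mbd2-/- replicate 4 left out giving the opposite sign in each. The cause was not tested. The median of all genes moved by -0.0115 with upper quartile scaling and by 3.6e-04 with TMM on the log2 scale.

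With the replicate number as a block, 16 members were called lower and 6 higher, against 16 and 5 without it, 29 genes of the other release machinery against 28, and 1743 genes of the whole table higher and 1449 lower. The numbers pair no animals.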
